A study of Mus musculus with 6 samples.

Results

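AP-1 and EGR immediate-early factors are the transcription factors encoded by Fos, Fosb, Fosl1 and Fosl2, by Jun, Junb and Jund, and by Egr1, Egr2 and Egr3. These 10 genes were taken by symbol from the 54532 genes in the expression table, and all 10 were found and tested. Their levels were compared in primary cardiomyocytes isolated from neonatal mouse hearts with a modified Rit1 gene that expresses the M90I variant of the RAS-related GTPase RIT1 once recombined by Cre. All cultures were infected on day 3 after isolation, either with adenovirus encoding GFP (AdGFP, labelled Rit1 +/+, 3 samples) or with adenovirus encoding GFP-Cre (AdCre, labelled Rit1 M90I/+, 3 samples). Both groups therefore carried virus and GFP, and every AdCre culture carried Cre as well as the variant, so effects of M90I and of Cre cannot be told apart here. The study took RNA several days after infection, so the first minutes and hours after infection were not sampled. Samples within a group are labelled as biological replicates 1 to 3. The labels do not say whether they came from separate litters or hearts, so p-values measure the spread between these samples, which may be partly technical.

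AP-1 is a dimer of basic leucine zipper proteins. Jun proteins pair with each other or with Fos proteins, whereas Fos proteins need a Jun partner to bind DNA. EGR proteins are zinc finger factors that bind GC-rich sites. Many of these genes are induced within minutes when growth factors activate the RAS-RAF-MEK-ERK cascade, in part through serum response factor and its ETS-domain partners at CArG boxes, and through CREB-type factors at cyclic AMP response elements (CRE). Fosl1, which encodes FRA-1, accumulates later under sustained ERK activity, and in heart muscle cells Fos and Egr1 are known for their quick induction by hypertrophic stimuli.

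Promoter sequences from RefSeq (GRCm38.p6) were at hand for 7 of the 10 genes, namely Fos, Fosb, Fosl2, Jun, Junb, Jund and Egr2, in 11 windows of 300 bases, each with 250 bases before and 50 after an annotated start. Both strands were searched for the AP-1 site TGANTCA, the CRE core TGACG, the ETS site CCGGAA, the EGR site GCGNGGGCG and the CArG box. The CRE core is contained in the longer palindromic CRE, which was searched too and matched none of the 11 windows. Upstream stretches of Fosb and Egr2 are shown because these genes were higher in AdCre with no overlap of the groups. That of Fos is shown for contrast, because its values overlapped. Matches are in capitals. No base shown lies in an exon of the GENCODE M21 annotation. For this, 6 exonic bases next to the start were left off the Fosb stretch, while distances are still counted from the start. Both Egr2 stretches lie inside the Egr2 gene, before internal start sites.
Fosb, chr7:19310052-19310295, minus strand, with TGACG 60 bases and the EGR site 50 bases before the start: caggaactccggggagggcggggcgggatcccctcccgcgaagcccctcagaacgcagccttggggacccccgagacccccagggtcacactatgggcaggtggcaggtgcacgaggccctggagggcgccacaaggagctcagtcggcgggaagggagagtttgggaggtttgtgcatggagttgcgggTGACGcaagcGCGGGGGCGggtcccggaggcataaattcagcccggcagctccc
Egr2, chr10:67537316-67537565, plus strand, with a CArG box at 72 bases and CCGGAA on either strand at 131, 129 and 48 bases before the start: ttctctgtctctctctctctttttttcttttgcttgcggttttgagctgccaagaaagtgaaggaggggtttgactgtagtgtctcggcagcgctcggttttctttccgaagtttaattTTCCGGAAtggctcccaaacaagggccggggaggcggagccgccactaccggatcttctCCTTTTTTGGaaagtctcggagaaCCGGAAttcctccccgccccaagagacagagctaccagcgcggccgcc
Egr2, chr10:67537619-67537868, plus strand, with a CArG box at 72 bases and TGACG on either strand at 111 and 55 bases before the start: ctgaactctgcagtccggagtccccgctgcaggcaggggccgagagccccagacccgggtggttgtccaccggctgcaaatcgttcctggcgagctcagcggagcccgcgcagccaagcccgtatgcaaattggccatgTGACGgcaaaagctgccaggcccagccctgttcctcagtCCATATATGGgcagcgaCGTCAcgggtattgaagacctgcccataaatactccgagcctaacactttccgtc
Fos, chr12:85473640-85473889, plus strand, with TGACG at 129 and 66 bases before the start: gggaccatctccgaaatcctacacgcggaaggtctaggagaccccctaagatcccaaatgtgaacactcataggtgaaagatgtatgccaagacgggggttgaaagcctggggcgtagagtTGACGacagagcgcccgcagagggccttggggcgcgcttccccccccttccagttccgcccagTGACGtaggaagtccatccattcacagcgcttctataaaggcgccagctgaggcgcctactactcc

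Among 32817 such promoter windows of the mouse genome, 1.63% held a CArG box, 20.8% the CRE core, 14.9% the ETS site, 5.56% the EGR site and 7.81% the AP-1 site. Of the 7 genes with windows, Egr2 alone held a CArG box in this stretch, in 4 of its 5 windows. Of these 4 windows, 3 overlap and share the same box. Sites further than 250 bases before a start were not searched, so Fos and the other genes may hold a CArG box outside these windows. Junb held 1 CRE core, 106 bases before its start, and Fosl2 held 1 EGR site, 79 bases before its start. None of the 11 windows held TGANTCA. The windows of Jun and Jund held none of the motifs, and neither did the Egr2 window nearest the start of the gene, which is not shown. These matches describe letters in the sequence and say nothing of binding in these cells.

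Each library held between 25.3 M and 32.4 M reads assigned to genes, as worked back from the FPKM values, which count fragments per unit of exon length and of depth. Members ranged from 42 reads for Egr3 in AdGFP 1 to 4536 reads for Fosl2 in AdCre 3. The culture also held other cells. All 10 cardiomyocyte markers on a list were detected, with a summed level of 1914 to 2586 FPKM in AdGFP and 1060 to 1805 FPKM in AdCre. Fibroblast markers summed to 2630 to 4714 FPKM in AdGFP and 2311 to 3390 FPKM in AdCre. In these bulk samples, fewer cells of a type and less RNA per cell cannot be told apart.

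At the level of the whole set, 3 of the 10 members, Fosb, Egr2 and Egr3, lay higher in every AdCre sample than in every AdGFP sample, and none lay lower throughout. Over the 13794 genes tested, 7.36% lay higher and 8.02% lower without overlap. No member passed at a limma adjusted p under 0.05 in the fit without pairing, in which 0.00725% of all genes passed, and 4 members had an unadjusted p under 0.05, all higher in AdCre, against 10.2% of all genes, or 4.71% counting only those higher. Same-numbered samples of the groups deviated together, so the replicate number was also fitted as a block. With the block 2 members, Fosl1 and Egr2, passed, both higher in AdCre, against 6.15% of all genes called in either direction, 2.64% as higher and 3.51% as lower. The median log2 fold change was 0.37 over the 10 members and -0.002185 over all genes tested. Within the same-numbered pairs, 5 members (Fosb, Fosl1, Junb, Egr2 and Egr3) were higher in AdCre in all 3, against 23.9% of all genes, and 1 (Fosl2) was lower in all 3, against 24.5%.

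**Figure D1:**
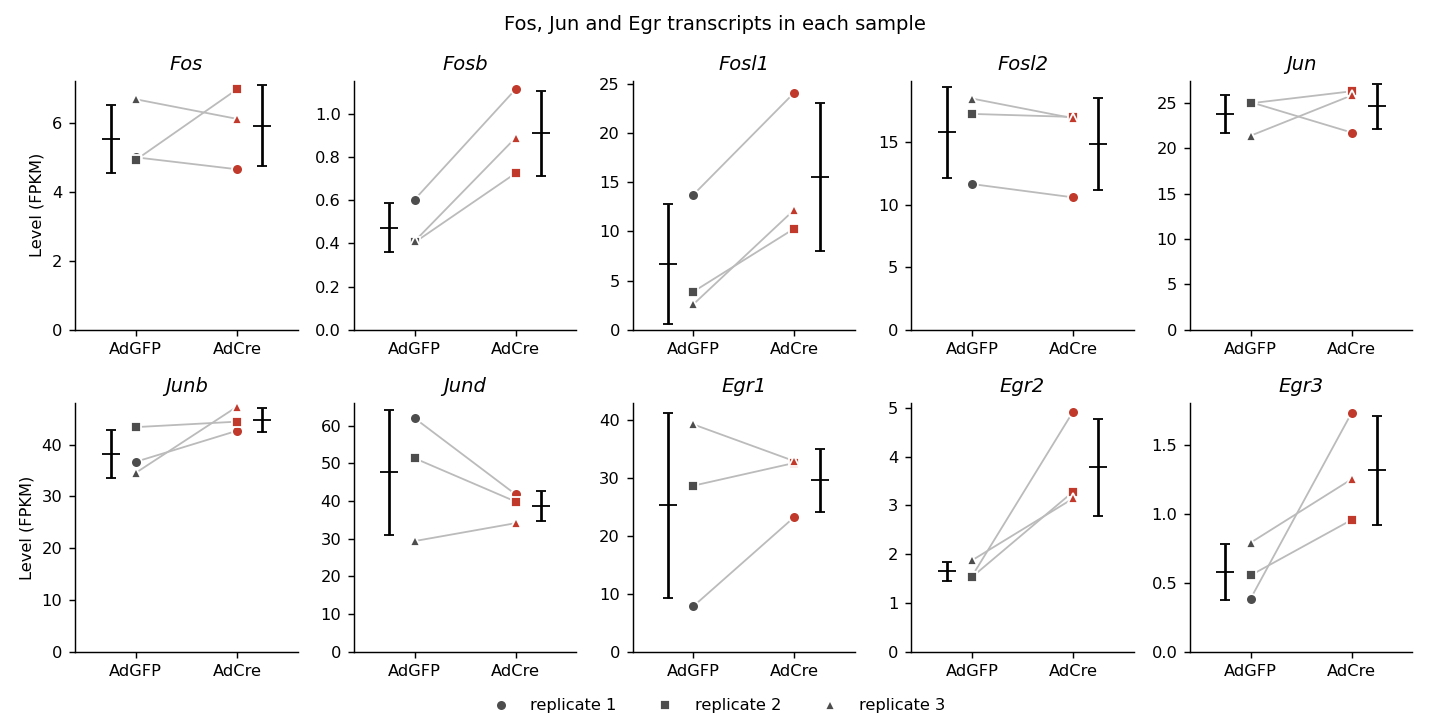
Level of each member in FPKM (vertical axes from 0) in the 3 AdGFP and 3 AdCre samples. Symbols mark the replicate number, grey lines join same-numbered samples, and black bars give mean ± SD (n = 3). Fosb, Egr2 and Egr3 do not overlap between the groups, Fosl1 is higher along every line, and Egr1 in AdGFP 1 (7.82 FPKM) is far below its other 5 values.

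The members differed widely in level. In AdGFP the order from the top was Jund (47.6 ± 16.6 FPKM), Junb (38.2 ± 4.60), Egr1 (25.2 ± 16.0), Jun (23.8 ± 2.10), Fosl2 (15.8 ± 3.65), Fosl1 (6.72 ± 6.10), Fos (5.54 ± 0.997), Egr2 (1.65 ± 0.193), Egr3 (0.577 ± 0.204) and Fosb (0.472 ± 0.113 FPKM; mean ± SD, n = 3 each). Neighbours in this order overlapped in range except Jun and Fosl2, Fos and Egr2, and Egr2 and Egr3. In AdCre, Junb (44.8 ± 2.34 FPKM) stood above Jund (38.6 ± 3.96 FPKM) without overlap, and Jund above Egr1 (29.5 ± 5.47 FPKM). Fosl1 (15.6 ± 7.5 FPKM) moved up beside Fosl2 (14.8 ± 3.69 FPKM), which it overlapped and which stayed clear of Fos. Fos, Egr2, Egr3 and Fosb kept the lowest places, and among these only Egr2 and Egr3 did not overlap their neighbour. The Jun genes thus made up the most abundant family, and the members without overlap between groups were the 3 with the lowest levels. Fosb, in AdGFP under the 0.5 FPKM set for testing, passed that filter on its mean over all samples.

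Fosl1 had the highest log2 fold change of the 10 with all samples in the fit, though Egr2 (1.21) and Egr3 (1.29) stood above it without AdGFP 3. The gene (ENSMUSG00000024912) lies on chromosome 19 from 5447547 to 5455946 (GRCm38) and encodes FRA-1, a Fos protein without the transactivation domain of FOS. Its level was 13.7, 3.86 and 2.57 FPKM in AdGFP 1 to 3, or 579, 167 and 108 reads. It was 24.1, 10.3 and 12.2 FPKM in AdCre 1 to 3, or 1320, 454 and 578 reads. AdGFP 1 was high within its group and lay above AdCre 2 and AdCre 3, so the groups overlapped, while every AdCre sample exceeded its same-numbered AdGFP sample. The ratio within pairs was 1.76, 2.67 and 4.76. On the log2 scale the difference was 1.47 ± 0.62 (SE, 95% confidence interval 0.01 to 2.93), with a limma adjusted p of 0.491. With the block the standard error was 0.25 and the limma adjusted p was 0.0346. That call was lost without pair 2 (0.106) or pair 3 (0.0895), without a filter on low values (0.121) or without an intensity trend (0.101), and the log2 fold change was 0.98 without AdGFP 3. Exons of Ccdc85b on the opposite strand cover 57.2% of the Fosl1 exon bases in GENCODE M21, and use of strand in counting is not stated.

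Fosb (ENSMUSG00000003545, chromosome 7, 19302696 to 19310051) encodes FOSB and, by splicing, the truncated ΔFOSB, which gene-level values do not separate. Its level was 0.603, 0.404 and 0.409 FPKM in AdGFP, from 93, 64 and 63 reads. In AdCre it was 1.12, 0.726 and 0.890 FPKM, from 223, 117 and 154 reads. The AdCre samples were all above the AdGFP samples, with pair ratios of 1.85, 1.80 and 2.17. Its log2 fold change was 0.82 ± 0.31 (SE, 95% confidence interval 0.09 to 1.55), and the limma adjusted p was 0.446, or 0.120 with the block. It was 0.37 with a pseudocount of 1, since the gene is low. An exact permutation test (two-sided) gave p = 0.1 for Fosb, as for Egr2 and Egr3, and cannot go lower with 3 samples on each side.

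The remaining Fos genes showed no difference beyond the replicate spread. Fos (ENSMUSG00000021250, chromosome 12, 85473890 to 85477273), the classic immediate-early partner of JUN, was at 5.01, 4.93 and 6.69 FPKM in AdGFP 1 to 3 and at 4.66, 6.98 and 6.12 FPKM in AdCre 1 to 3. Only pair 2 was higher in AdCre, and the log2 fold change was 0.09 (95% confidence interval -0.38 to 0.55, limma adjusted p 0.938). Fosl2 (ENSMUSG00000029135, chromosome 5, 32135801 to 32157842), which encodes FRA-2, was at 11.6, 17.3 and 18.5 FPKM in AdGFP 1 to 3 and at 10.6, 17.0 and 16.9 FPKM in AdCre 1 to 3. Replicate 1 was the lowest in both groups. Its log2 fold change was -0.10 (95% confidence interval -0.69 to 0.50, limma adjusted p 0.950), narrowed with the block to an interval of -0.28 to 0.09.

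Summed over the 4 Fos genes, the level was 31.0, 26.4 and 28.2 FPKM in AdGFP and 40.5, 35.02 and 36.1 FPKM in AdCre, higher in every AdCre sample (exact two-sided permutation p = 0.1, the smallest possible). Fosl1 made up 44.3%, 14.6% and 9.12% of this sum in AdGFP and 59.6%, 29.4% and 33.8% in AdCre. Its share was higher by 15.3, 14.8 and 24.7 percentage points in pairs 1 to 3, but the groups overlapped because of AdGFP 1 (exact two-sided permutation p = 0.3). The exact sign-flip p over the pairs was 0.25, the smallest that 3 pairs allow. The mean difference was 29.1 points without AdGFP 1, 11.5 points without AdGFP 3 and 8.94 points without AdCre 1. The share of Fosl2 was 37.6%, 65.3% and 65.7% in AdGFP and 26.1%, 48.6% and 46.8% in AdCre, lower in each pair (exact two-sided permutation p = 0.3).

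**Figure D2:**
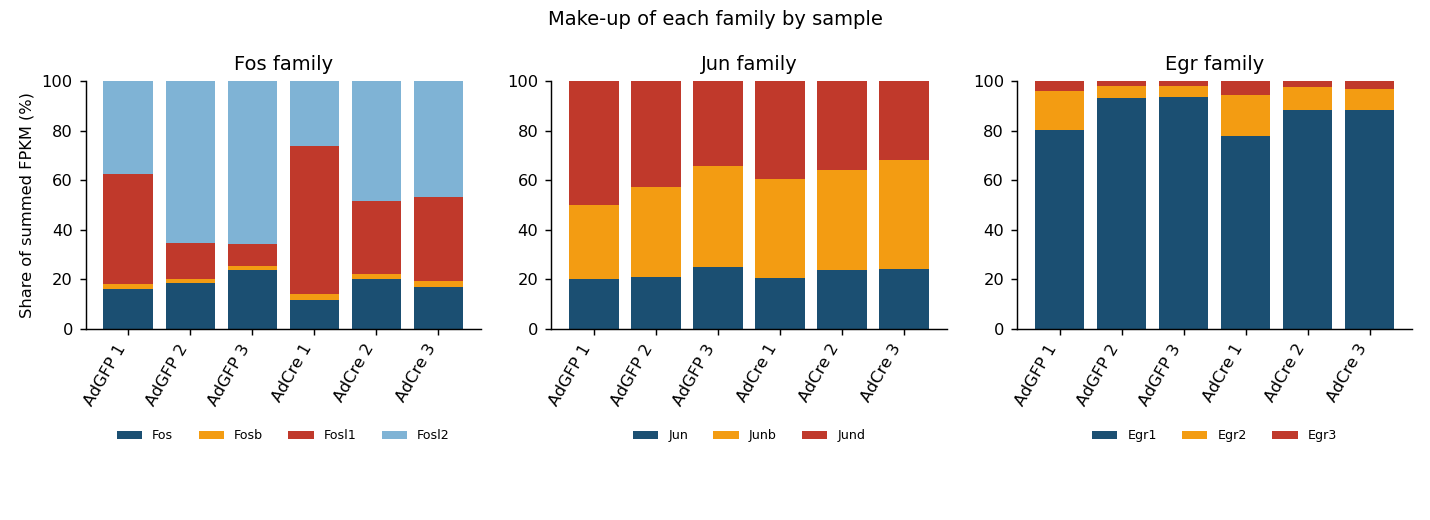
Share of each member in the summed FPKM of its family (vertical axis, percent) in each of the 6 samples. In the Fos family the Fosl1 band is wider in each AdCre sample than in the AdGFP sample of the same number (59.6% against 44.3% in replicate 1), and in the Egr family Egr1 makes up 77.7% to 93.6% throughout.

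No Jun gene passed the test. Jun (ENSMUSG00000052684, chromosome 4, 95049034 to 95052222), the founding AP-1 gene, was at 25.1, 25.0 and 21.4 FPKM in AdGFP 1 to 3 and at 21.7, 26.3 and 25.9 FPKM in AdCre 1 to 3. The ranges overlapped, and the log2 fold change of 0.05 had a 95% confidence interval of -0.26 to 0.35 (limma adjusted p 0.955). Junb (ENSMUSG00000052837, chromosome 8, 84974484 to 84978718), which often opposes JUN in growth control, was at 36.7, 43.4 and 34.5 FPKM in AdGFP 1 to 3 and at 42.6, 44.4 and 47.3 FPKM in AdCre 1 to 3. AdGFP 2 lay above AdCre 1, and AdCre was higher in each pair, by ratios of 1.16, 1.02 and 1.37. Its log2 fold change was 0.23 (95% confidence interval -0.07 to 0.54, limma adjusted p 0.611, or 0.214 with the block). Jund (ENSMUSG00000071076, chromosome 8, 70698949 to 70700616), the most constitutive of the 3, was at 62.0, 51.3 and 29.4 FPKM in AdGFP 1 to 3 and at 41.7, 39.8 and 34.1 FPKM in AdCre 1 to 3. AdCre was lower in pairs 1 and 2 and higher in pair 3, and the log2 fold change was -0.24 (95% confidence interval -0.88 to 0.40, limma adjusted p 0.846). It was -0.0149 without AdGFP 1 and -0.55 without AdGFP 3. Antisense exons cover 52.6% of Jund (by Gm11175), 7.52% of Junb (by Prdx2) and 7.28% of Jun (by Junos). The summed Jun family level was 85.3 to 124 FPKM in AdGFP and 106 to 111 FPKM in AdCre (exact two-sided permutation p = 1).

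In the EGR family, Egr2 and Egr3 were higher in AdCre without overlap, and Egr1 was not. Egr2 (ENSMUSG00000037868, chromosome 10, 67535475 to 67542188), or KROX20, is best known for its role in myelination and hindbrain patterning. It was at 1.55, 1.53 and 1.87 FPKM in AdGFP, from 130, 132 and 157 reads, and at 4.92, 3.28 and 3.14 FPKM in AdCre, from 536, 288 and 296 reads. The AdGFP samples lay close together and every AdCre sample was above them, with pair ratios of 3.18, 2.14 and 1.68. The log2 fold change of Egr2 was 1.13 ± 0.21 (SE, 95% confidence interval 0.63 to 1.63), and the limma adjusted p was 0.196, or 0.0346 with the block. The call with the block was lost without pair 2 (0.109) or pair 3 (0.0857), without a filter (0.119) or without a trend (0.0894). The study had named Egr2 as a MAPK target from these same samples, so its direction is not independent evidence.

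Egr3 (ENSMUSG00000033730, chromosome 14, 70077203 to 70082614), which has overlapping functions with Egr2 in lymphocytes, was at 0.386, 0.555 and 0.792 FPKM in AdGFP, from 42, 62 and 86 reads. It was at 1.74, 0.958 and 1.25 FPKM in AdCre, from 245, 109 and 153 reads. Pair 1 held both the lowest and the highest value, so its ratio of 4.50 exceeded those of pairs 2 and 3 (1.73 and 1.58). The log2 fold change of Egr3 was 1.07 ± 0.34 (SE, 95% confidence interval 0.27 to 1.88), and the limma adjusted p was 0.365, or 0.116 with the block. It was 0.55 with a pseudocount of 1 and 0.65 in the blocked fit without pair 1.

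Egr1 (ENSMUSG00000038418, chromosome 18), the most abundant EGR gene, was at 7.82, 28.6 and 39.2 FPKM in AdGFP 1 to 3 and at 23.2, 32.5 and 32.9 FPKM in AdCre 1 to 3. AdGFP 1, with 867 reads, was below every other sample, which had at least 3255. Egr1 was higher in AdCre in pairs 1 and 2 and lower in pair 3, with ratios of 2.97, 1.14 and 0.838. The fitted log2 fold change of Egr1 was 0.50 ± 0.56 (SE, 95% confidence interval -0.82 to 1.81, limma adjusted p 0.844), and it was -0.20 without AdGFP 1. That library stood apart for other immediate-early genes too, with Atf3 at 22.9 FPKM against 3.90 to 7.53 FPKM in the other 5 samples, and Plk2 at 81.7 FPKM against 23.3 to 32.6 FPKM, both named after their values were seen. Macrophage markers summed to 49.7 FPKM in AdGFP 1 and 88.4 FPKM in AdCre 1, against 208 to 345 FPKM in the other samples. The part of these differences in the Egr1 values was not tested. Egr2 made up 15.9%, 4.99% and 4.48% of the summed EGR level in AdGFP and 16.5%, 8.92% and 8.44% in AdCre. The groups overlapped, with a mean difference of 2.84 percentage points (exact two-sided permutation p = 0.5). Within pairs 1 to 3 the share was higher in AdCre by 0.612, 3.93 and 3.96 points, and the exact sign-flip p of 0.25 was again the smallest possible. The mean difference was 6.55 points without AdGFP 1 and 0.237 points without AdCre 1.

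**Figure D3:**
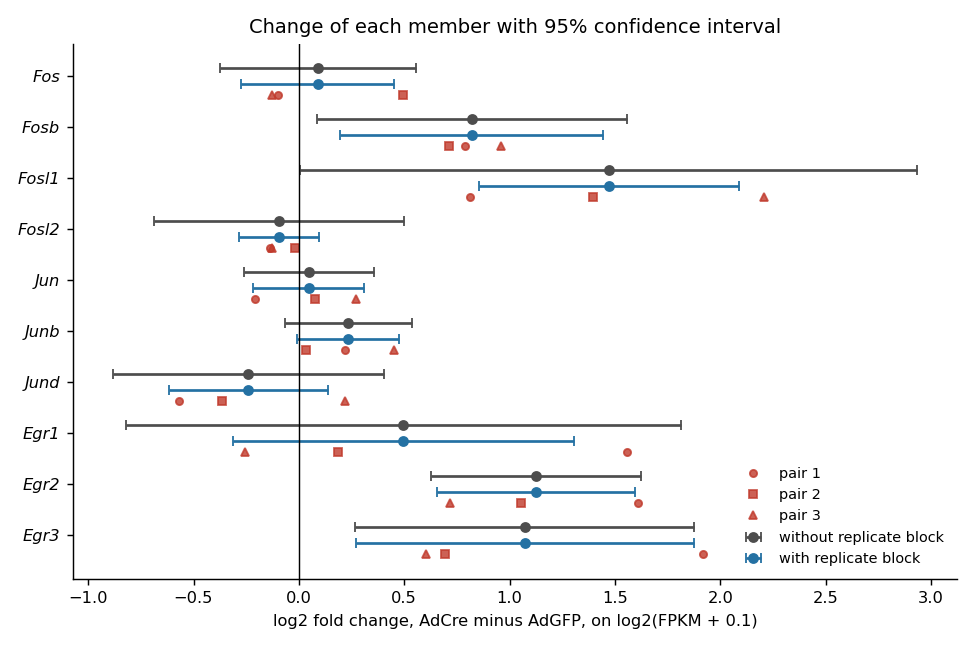
The log2 fold change of each member (horizontal axis, AdCre minus AdGFP on log2(FPKM + 0.1)) with 95% confidence intervals from the fits without (grey) and with (blue) the replicate block. Red symbols give the 3 differences within same-numbered pairs. With the block the interval of Fosl1 narrows from 0.01 to 2.93 down to 0.85 to 2.09 and that of Fosl2 from -0.69 to 0.50 down to -0.28 to 0.09, while that of Egr3 hardly changes.

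After centring log2 values over the 6 samples, 3 pairs of members were each nearest to one another. They were Jun and Junb, with a root mean square difference of 0.134, Fos and Fosl2 (0.210), and Egr2 and Egr3 (0.221). The nearest member to Fosb was Egr2 (0.283), while Fosl1 had no near match among the members (0.689 to Fosb, its nearest). Compared with 12419 other protein-coding genes, the pattern nearest to Egr2 was that of Ereg, at 0.0929. Ereg encodes the EGF receptor ligand epiregulin, and the study named both genes from these samples. It was at 3.72, 3.58 and 4.34 FPKM in AdGFP 1 to 3 and at 10.00, 7.09 and 7.90 FPKM in AdCre 1 to 3. Nearest to Fosl1 was Krt80, a type II keratin, at 0.300, with 8.80, 1.70 and 1.07 FPKM in AdGFP and 13.9, 5.46 and 4.10 FPKM in AdCre. Egr1 was nearest to Angpt2 (0.118), the angiopoietin that antagonizes TIE2, and Jund to Deptor (0.0656), an mTOR inhibitor. The others were nearest to Raet1d (Fosb, 0.10), Tmem229b (Egr3, 0.131), Senp8 (Fos, 0.0619), Lxn (Fosl2, 0.0286), Tmed1 (Jun, 0.0445) and Sh3bp1 (Junb, 0.0570). None of these nearest genes passed without the block (Ereg, Raet1d and Tmem229b at an unadjusted p under 0.05), and Ereg, Raet1d and Krt80 passed with it (limma adjusted p 0.0194, 0.0252 and 0.0346). Those calls were lost in the block without pair 3 (0.0765, 0.117 and 0.132), without a filter (0.0794, 0.0898 and 0.120) or without a trend (0.0716, 0.0786 and 0.0976), and without pair 2 for Ereg (0.0601) and Krt80 (0.119). The likenesses over 6 samples are descriptions and were not tested.

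Other immediate-early genes had fold changes on both sides of 0. Of 25 on a list 24 were tested, 13 with a log2 fold change above 0 and 11 below, and the median was 0.01. In all 3 pairs 8 were higher and 1 was lower, against 23.9% and 24.5% of all genes. Without overlap 4 were higher and 0 lower, against 7.36% and 8.02% of all genes. None passed without the block (4 at an unadjusted p under 0.05, all higher), and 3 passed as higher with it. Over all lists together the block called 31 genes, but 6 without pair 2 and 0 without pair 3, without a filter or without a trend, so each call with the block given for a list gene rests on those settings. Arc, a neuronal activity-regulated gene, went from 1.07, 1.17 and 1.71 FPKM to 6.24, 3.88 and 2.92 FPKM, with a log2 fold change of 1.604 (limma adjusted p 0.206, or 0.0451 with the block). Nr4a1, an orphan nuclear receptor, had 5.55 to 7.59 FPKM in AdGFP and 9.03 to 10.6 FPKM in AdCre (0.58, limma adjusted p 0.310, or 0.0286 with the block). The small MAF protein gene Maff had a log2 fold change of 0.44 with overlap (0.485, or 0.0388 with the block). By contrast Myc, Ier2 and Dusp1, chosen after their values were seen, had log2 fold changes of -0.04, -0.01 and 0.01. Egr4, the fourth EGR gene and named outside the rule, was below the filter, at 0.151, 0.0551 and 0 FPKM in AdGFP 1 to 3 and at 0.640, 0.108 and 0.218 FPKM in AdCre 1 to 3.

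Factors that act on immediate-early promoters were near the overall median, with 7 of 13 above 0 and a median log2 fold change of 0.01. None passed without the block (1 at an unadjusted p under 0.05), and with it only the ETS-domain gene Elk3 did, at 11.3 ± 1.75 FPKM in the AdGFP group and 15.6 ± 2.25 FPKM in the AdCre group (log2 fold change 0.46, limma adjusted p 0.416, or 0.0312 with the block). Srf, which encodes serum response factor, and Elk1, both named after their values were seen, had log2 fold changes of 0.01 and -0.01. Of 17 basic leucine zipper partners of Fos and Jun, 14 were tested, with 7 above 0 and a median of 0.03, and Maff was the only one called with the block. Kinases of the JNK pathway, which phosphorylates JUN, had 3 of 7 above 0 and a median of -0.01, with no call in either fit and none at an unadjusted p under 0.05. The smallest p-values there belonged to Map3k7 (0.22, limma adjusted p 0.641) and Map2k4 (0.18, 0.680), at 0.14 without AdGFP 2 and 0.11 without AdGFP 1, respectively.

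Known AP-1 target genes had the highest median among the lists of related genes. Of 18 such genes, 14 had a log2 fold change above 0, and the median was 0.61. In all 3 pairs 12 were higher and 2 were lower, against 23.9% and 24.5% of all genes. None passed without the block. At an unadjusted p under 0.05 there were 6, of which 5 were higher and Mmp10 was lower. With the block 6 passed, all higher. They were Ccnd1, Hmga1, Lif, Plaur, Plau and Cd44, the last named outside the rule. Ccnd1, which encodes cyclin D1 and which the study also named, was at 46.1, 33.7 and 29.9 FPKM in AdGFP 1 to 3 and at 90.9, 74.7 and 74.7 FPKM in AdCre 1 to 3 (log2 fold change 1.15, limma adjusted p 0.144, or 0.00969 with the block). Hmga1, a chromatin protein gene, was at 66.8, 33.2 and 27.6 FPKM and then 129, 65.7 and 64.3 FPKM (1.05, 0.446, or 0.00990 with the block). Lif, a cytokine of the interleukin-6 family, was at 8.77, 3.76 and 3.58 FPKM and then 15.1, 8.00 and 7.58 FPKM (0.97, 0.491, or 0.0145 with the block). For Hmga1 and Lif, as for Fosl1, AdGFP 1 was the highest of its group and AdCre 1 the highest of all. Plau and Plaur, urokinase and its receptor, had log2 fold changes of 0.53 and 0.68 (limma adjusted p 0.381 and 0.712, or 0.0269 and 0.0260 with the block). The value of Plaur was 1.17 without AdGFP 1, 0.41 without AdGFP 2 and 0.29 without AdCre 1. The 4 matrix metalloproteinase genes of the list, named after their values were seen, had log2 fold changes of -1.05 (Mmp10), -0.28 (Mmp3), -0.14 (Mmp13) and 0.80 (Mmp9), and none was called. Mmp10 was at 3.45, 2.02 and 1.96 FPKM in AdGFP and 0.762, 1.26 and 1.38 FPKM in AdCre, lower in every AdCre sample (limma unadjusted p 0.0115, adjusted p 0.338, or 0.120 with the block).

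Among 10 EGR co-repressor and target genes, 6 were above 0 and the median was 0.05, and none passed without the block. Tgfb1, which encodes a growth factor of the TGF-β family and was named outside the rule, was the 1 gene at an unadjusted p under 0.05 (log2 fold change 0.32, limma adjusted p 0.455, or 0.133 with the block). Nab2, a co-repressor that EGR factors induce and named after its value was seen, had a log2 fold change of 0.14. Icam1, an adhesion molecule, was the only gene called with the block, at 4.75 ± 2.01 FPKM in the AdGFP group and 8.05 ± 3.18 FPKM in the AdCre group (0.76, limma adjusted p 0.530, or 0.0169 with the block), with a log2 fold change of 0.46 without AdCre 3.

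Markers of the cells in culture differed between groups as well. All 10 cardiomyocyte markers had log2 fold changes below 0, with a median of -0.80 and 7 called as lower with the block, Pln first among them (-1.31, limma adjusted p 0.261, or 0.0101 with the block). Of 10 fibroblast markers 9 were below 0, with a median of -0.31 and 3 called as lower with the block (Dcn, Lum and Col3a1, at -0.79, -0.49 and -0.47). These were -1.33, -0.96 and -0.74 without AdGFP 1, -0.23, -0.14 and -0.19 without AdGFP 3, -0.34, 0.03 and -0.14 without AdCre 1, and -1.22, -0.84 and -0.71 without AdCre 3. Of 10 endothelial markers 9 were above 0, with a median of 0.38, a sum of 94.99 to 147 FPKM in AdGFP and 139 to 206 FPKM in AdCre, and 4 called as higher with the block (Eng, Flt1, Cdh5 and Egfl7). Of these Cdh5, at 0.42, was 0.22 without AdGFP 1, 0.65 without AdGFP 3, 0.66 without AdCre 1 and 0.17 without AdCre 3. All 8 macrophage markers tested were above 0, with a median of 0.52 and 2 called with the block (C1qb and Lyz2, at 0.50 and 0.51). Their sign turned without AdGFP 1 (-0.12 and -0.30), and over the other single omissions they lay between 0.08 and 1.06 and between 0.11 and 1.19. Smooth muscle and pericyte markers had a median of 0.09, 5 of 8 above 0 and no call, with the smallest p for Kcnj8 and Rgs5 (-0.52 and -0.42). These were -0.20 and 0.03 without AdCre 1 and -0.83 and -0.64 without AdCre 2, and Rgs5 was -0.65 without AdCre 3 and -0.27 without AdGFP 3. Epicardial and mesothelial markers were split, with a median of -0.15 over 9 tested. Krt8, Krt18 and Aldh1a2 were called with the block as higher (1.48, 0.88 and 0.54) and Lrrn4 as lower (-1.50, or -0.90 without AdGFP 3 and -0.85 without AdCre 2). No marker of these lists stood at 0 in all samples. Without the block none of these marker genes passed (at an unadjusted p under 0.05, 7 cardiomyocyte, 3 endothelial and 3 epicardial markers and none of the other lists), and the part of shifts in cell content in the values of Fosl1, Fosb, Egr2 and Egr3 was not tested.

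**Figure D4:**
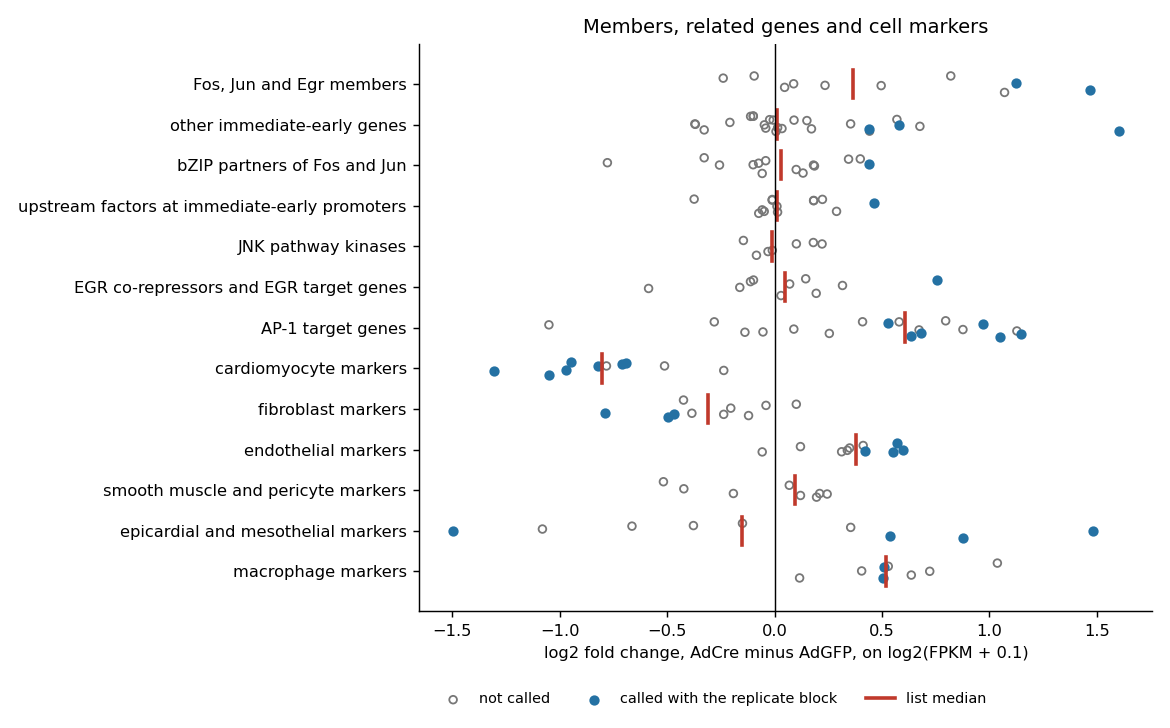
The log2 fold change (horizontal axis, AdCre minus AdGFP on log2(FPKM + 0.1)) of every tested gene of the 10 members, of 6 lists of related genes and of 6 lists of cell markers. Filled points passed with the replicate block, open points did not, and red bars are list medians. The median of the AP-1 targets (0.61) lies right of 0, with 4 of the 18 genes left of it, that of other immediate-early genes (0.01) lies near 0, and all 10 cardiomyocyte markers (median -0.80) lie left of it.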

How the data were processed

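RNA was poly-A selected and copied from random primers. The deposited table gives FPKM made by the authors, 1 column for each of the 6 samples. Their processing notes name fastp, STAR 2.5, HTSeq 0.6.1 and build mm10, while the annotation and strand use are not stated. Of 54532 gene IDs, 54495 matched GENCODE M21 (GRCm38), which gave symbols, positions and exon lengths. Multiplying FPKM by exon length gave whole numbers of reads (within 0.01) for 96.8% of genes above 0, and for 99.9% once other lengths were tried. Fosl1 needed a length of 1707 bases in place of 2033. These recovered reads are given as depth.

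The test used log2(FPKM + 0.1) of the 13794 genes averaging 0.5 FPKM or more, a scale that understates fold changes of low genes. The model, with group as its only term, was run in limma 3.58.1 under R 4.3.3 (eBayes with a trend). Benjamini-Hochberg adjustment covered all genes, with calls at 0.05. Deviations from group means correlated at 0.568, 0.268 and 0.506 between same-numbered samples and at -0.497 to 0.0364 otherwise. The numbers were thus taken to pair the samples, from the values alone, and the replicate block is given beside each result whose call it changes. The fit was tested on simulated data. Alternatives were other pseudocounts, filters and scalings, no trend, the block, and leaving out samples or pairs. Voom on recovered reads and the block with median centring were added after the data were seen.

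The members, gene lists and tests were chosen with earlier results of these data known. Named genes were all members, from each list at most 5 called without the block or, if none, with it, or else the 2 with the smallest p, and the nearest protein-coding gene to each member. Genes named outside this rule are marked where they appear. Python 3.11.15 was used for tables.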

Additional observations from a re-analysis of the deposited data

How the results depend on the processing

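The count of all genes called, 1 in the fit reported, was 3 with a pseudocount of 1, 4 without a trend, 0 without a filter (2168 at an unadjusted p under 0.05) and 0 with voom on recovered reads (1455). It was 848 with the replicate block, 811, 152 and 1 in the block without pairs 1, 2 and 3, 875 with TPM scaling in the block, 778 with median centring in the block, 17 with the block and no filter, 0 with the block and no trend (3122 at an unadjusted p under 0.05) and 1710 with the block and voom. Of the blocked calls 364 were higher and 484 lower as deposited, against 538 and 337 with TPM and 990 and 720 with voom. The count of members called, 0 in the fit reported (4 at an unadjusted p under 0.05), was 2 with the block, alone or with TPM, median centring or pair 1 left out, and 4 with the block and voom, where Fosb (0.0144) and Egr3 (0.0275) joined Fosl1 and Egr2. Genes of the lists called were 0 in the fit reported, 31 with the block, 34 and 6 in the block without pairs 1 and 2, 31 with TPM, 29 with median centring and 51 with voom in the block. They were 0 in the block without pair 3, without a filter or without a trend, where the members called were also 0, as they were in the block without pair 2. Leaving out 1 sample gave 0 to 2 calls over all genes. The remaining settings, all without the block, gave 1 call over all genes and 0 among members and list genes.

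Fold changes of Fosb, Fosl1, Junb, Jund, Egr2 and Egr3 kept their sign under every alternative in which they were tested, but Jund ranged from -0.55 to -0.0149 on leaving out 1 sample. A mean of at least 1 FPKM left Fosb and Egr3 untested. The sign of Fos, Fosl2, Jun and Egr1 changed under some alternatives. Fos was -0.11 in the block without pair 2, Jun was -0.0659 in the block without pair 3, and Egr1 was -0.0346 in the block without pair 1. On leaving out 1 sample, Fos ranged from -0.0380 to 0.25, Fosl2 from -0.30 to 0.13, Jun from -0.0286 to 0.13 and Egr1 from -0.20 to 0.96, with Fosl2 at 0.03 without AdGFP 3 and Jun at -0.003075 without AdCre 2. The share of Fosl1 differed by 8.94 to 29.1 percentage points and that of Egr2 by 0.237 to 6.55 points. Among the members, the replicate block changed the calls of Fosl1 and Egr2 and no other in the fits on FPKM values. With voom on recovered reads it also changed those of Fosb and Egr3. Fosb and Egr3 had the fewest reads of the members in every sample, and how far this limits their values was not tested. With 3 samples a group no exact permutation test could pass the threshold. The cause of the changes between settings was not tested.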
